A study of Mus musculus with 6 samples.

Results

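Ion transporters of the cardiomyocyte surface membrane that move calcium and sodium were measured by 8 genes: the sodium/calcium exchangers Slc8a1, Slc8a2 and Slc8a3, the plasma membrane calcium pumps Atp2b1, Atp2b2 and Atp2b4, the sodium pump subunit Atp1b1 and its regulator Fxyd1. Every non-control row whose gene name on the array equals one of these symbols was taken, which gave 15 of the array's 55681 probes. After the update of names described under processing, the array held 35440 gene names. Cardiomyocytes were isolated by retrograde perfusion from adult mice 6 weeks after transverse aortic constriction (TAC), an operation that narrows the aorta and makes the left ventricle pump against a raised pressure. RNA of H19 KO mice (a knockout of the long non-coding RNA H19) and of wild-type littermates was hybridised to 1-colour Agilent arrays, 3 per genotype. Both genotypes had the operation, so each difference below compares genotypes under load; unoperated hearts were not analysed here. The labels say neither how the knockout allele was made nor whether an array held RNA of 1 mouse or of several. The p-values therefore cover only the spread among these 6 samples, which may be technical.

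With each heartbeat calcium enters a cardiomyocyte, and the same amount has to leave for the cell to stay in balance. The sodium/calcium exchanger NCX1, the product of Slc8a1, is the main route out in heart muscle: it trades calcium inside for sodium outside and can run backwards when sodium in the cell rises. The plasma membrane calcium pumps (PMCA, the Atp2b genes) remove calcium with energy from ATP and carry a smaller share in cardiomyocytes. The sodium pump builds the sodium gradient that the exchanger uses; its alpha subunit transports, its beta subunit (Atp1b1 encodes beta 1) brings the pump to the membrane, and phospholemman (Fxyd1) restrains it until phosphorylated. NCX2 and NCX3, the products of Slc8a2 and Slc8a3, are best known from brain and skeletal muscle, and PMCA2, the product of Atp2b2, from neurons and the inner ear.

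The probe sequences are shown first, because they bear on which isoform a signal can be credited to. One Slc8a1 probe and one Slc8a3 probe lie at matching places of the paralogous transcripts: along 51 aligned bases 38 were identical (74.5%), written in capitals.
Slc8a1, probe for NM_001112798, chr17:81844837-81844896, minus strand: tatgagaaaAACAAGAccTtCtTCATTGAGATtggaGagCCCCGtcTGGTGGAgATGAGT
Slc8a3, probe for NM_080440, chr12:82317709-82317768, minus strand: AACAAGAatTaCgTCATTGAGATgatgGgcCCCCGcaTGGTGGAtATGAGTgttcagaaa
Coordinates are mm9, as the array files give them. The other Slc8a3 probe (chr12:82299156-82299215) and the brighter Atp2b2 probe (chr6:113695839-113695898) hold runs of alternating C and A, in capitals in the 30-base stretches below. The Slc8a3 run fills the last 30 of the probe's 60 bases, and the Atp2b2 run spans 12 bases.
Slc8a3, repeat end of the other probe: CACACACACACACACACACACACACACACA
Atp2b2, stretch around the run: ctcttccatACACACACACACctacacagg
The Fxyd1 probe (chr7:31836699-31836758, minus strand) holds the common polyadenylation motif AATAAA from position 36, which 10.1% of all probes hold on the probe's own strand.
Fxyd1, last bases of the probe: cctctAATAAAactcggttttccttcttga
The Slc8a2 probe, the Atp1b1 probe and 1 of the Atp2b1 probes have a stop codon in all 3 forward reading frames, which is a description of their letters; exon and untranslated positions were not annotated here.

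All 8 genes had a probe well above background on all 6 arrays, but for Slc8a3 and Atp2b2 this rested on the repeat-bearing probe alone. A spot counts as well above background by the scanner software's own flag. Of the 15 probes, 12 carried that flag on all 6 arrays. The Slc8a1, Slc8a2, Atp2b1, Atp1b1 and Fxyd1 probes all did, and none of them holds a CA or GT run of 10 bases. Of the 3 Atp2b4 probes, 2 carried it on all 6 arrays and 1 on 5. The Slc8a3 probe without the repeat carried the flag on 1 wild-type array and on 0 of 3 knockout arrays, and so did the Atp2b2 probe without the run. Brightness of different probes does not measure which isoform is the more abundant, since probes differ in how well they bind, so isoforms are described by detection and not by level.

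Over all probes of the array, detection was more frequent in classes with longer runs. A CA run of 25 or more bases was held by 9 probes (0.0162%), and all 9 were well above background on all 6 arrays, against 24505 of 55580 probes (44.1%) with runs of at most 9 bases. For runs of 10 to 14 bases, the class of the Atp2b2 probe, 43 of 60 probes (71.7%) were so, and 4 (6.67%) were above background on no array, against 36.2% of the probes with the shorter runs. Complementary GT runs gave a like order, with 36 of 36 probes at 25 or more bases and 73 of 110 (66.4%) at 10 to 14. Among genes with an established symbol, 4 had both a probe with a CA run of 25 or more bases and a probe without a CA run of 10. For 3 of the 4, Slc8a3 among them, the brightest probe of the latter kind was not above background on all arrays. These are counts over probes that share 6 arrays, given as a description. What the repeat-bearing probes bind in these samples was not tested.

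**Figure D1:**
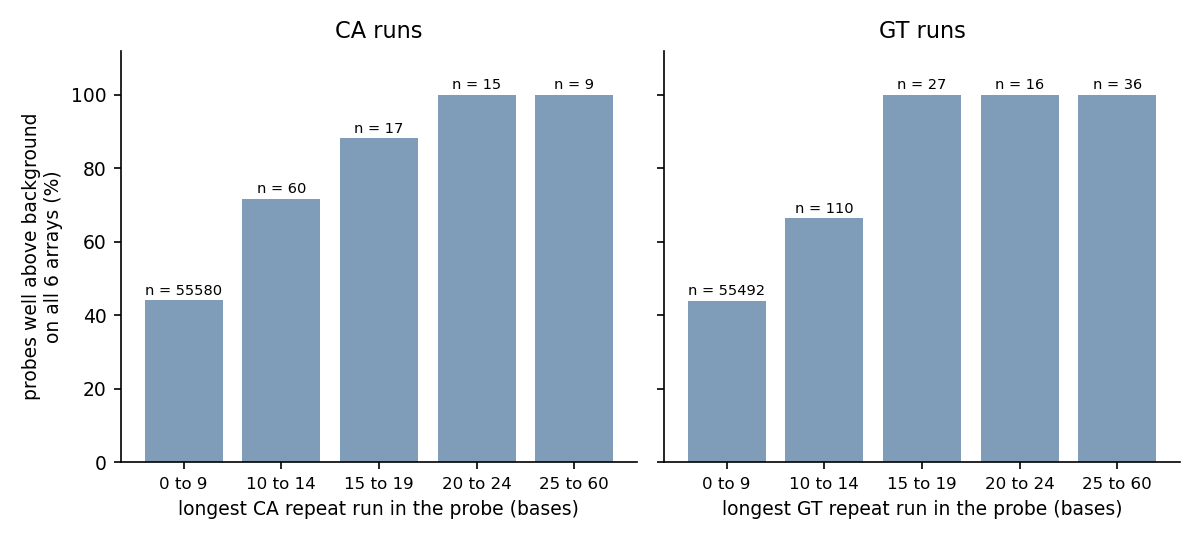
Share of non-control probes well above background on all 6 arrays (y axis, percent) by the length of the longest CA run (left) or GT run (right) in the probe (x axis, bases); the number over each bar counts its probes. The Slc8a3 repeat probe falls in the class of 25 to 60 bases, where 100% were detected, and the brighter Atp2b2 probe in that of 10 to 14, at 71.7%.

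No member differed between the genotypes past the threshold. With limma over all 21888 genes and Benjamini-Hochberg adjustment, 0 of the 8 genes had an adjusted p under 0.05, and the smallest was 0.627. Over all genes 7 passed, or 0.0320% (0.00457% higher and 0.0274% lower in knockout). At an unadjusted p under 0.05 stood 1 member, Slc8a2, against 7.94% of all genes. The signal was higher in knockout for 2 members, Slc8a1 and Slc8a2, and lower for 6, with a median difference of -0.08 (log2) beside -0.06 over all genes, of which 36.3% were higher. In bulk RNA a lower level in each cell and fewer cells of a type cannot be told apart. By probe, 0 of 13 tested passed, with 5 higher and 8 lower and a smallest adjusted p of 0.607; of all 29989 tested probes 0.0467% passed. At an unadjusted p under 0.05 stood 0 of the 13, against 8.23% of all tested probes.

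**Figure D2:**
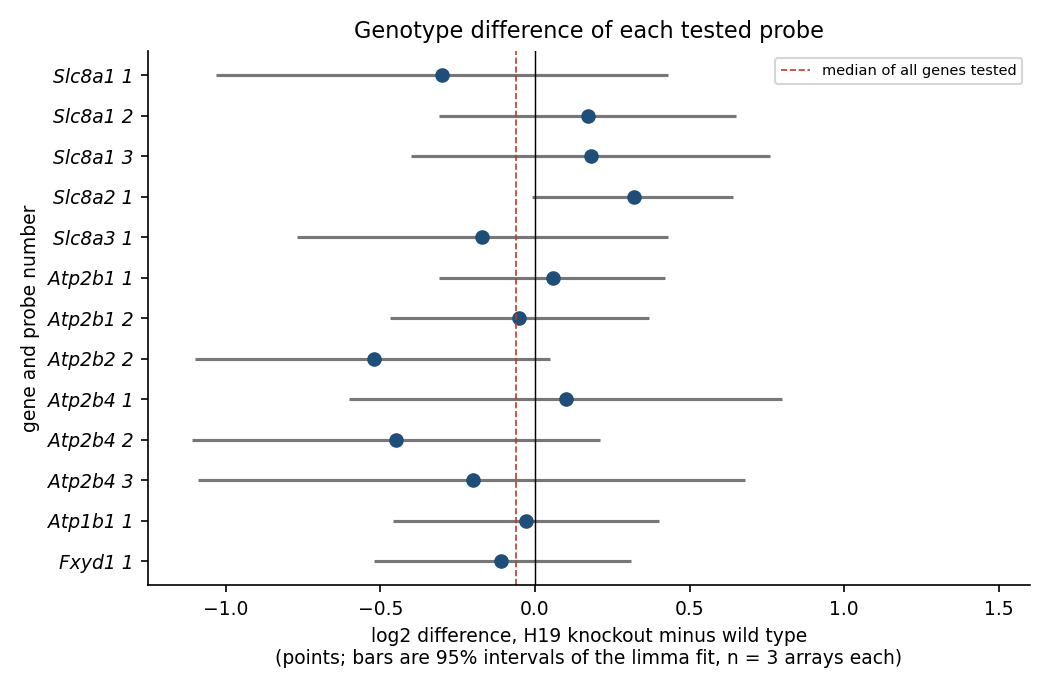
Log2 difference of each tested probe, H19 knockout minus wild type (x axis), for the 13 tested probes of the 8 genes (y axis, gene and probe number); bars are 95% intervals of the limma fit with 3 arrays per genotype, and the dashed line is the median of all genes tested (-0.06). All 13 intervals hold 0; the Slc8a2 interval (-0.01 to 0.64) and that of Atp2b2 (-1.10 to 0.05) come nearest to leaving it.

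Slc8a1, the cardiac exchanger, was read by 3 probes that did not share a direction. The values are log2 of the processed spot signal relative to the 75th percentile of the same array. The probe aligned above read -0.68, -0.47 and -0.32 on wild-type replicates 1, 2 and 3 and 0.02, -0.57 and -0.41 on knockout replicates 1, 2 and 3. Knockout replicate 1 was the highest array and wild-type replicate 1 the lowest, both on slide 1, and the other 4 arrays interleaved. The difference was 0.17 (SE 0.20, 95% interval -0.31 to 0.65, adjusted p = 0.993 by limma). Slide 1, which held replicate 1 of each genotype, gave 0.70, and slide 2, with replicates 2 and 3, gave -0.09; without knockout replicate 1 it was 0.00. A second probe, for NM_011406 at chr17:81787868-81787927, followed the same order at its ends, with -2.80 on wild-type replicate 1 and -1.86 on knockout replicate 1, and differed by 0.18 (SE 0.25). The third, designed from a partial coding sequence of an NCX1 isoform (AF108397, chr17:81844210-81844269), read -2.57, -2.80 and -3.24 in wild type and -2.78, -3.78 and -2.94 in knockout. Here knockout replicate 2 was lowest and wild-type replicate 1 highest, and the difference was -0.30 (SE 0.31). Each of the 3 intervals includes 0, and the widest reached from -1.03 to 0.43.

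Slc8a2, which encodes NCX2, was the member with the smallest p. Its single probe (chr7:16745797-16745856, plus strand) read -1.65, -1.60 and -1.51 in wild type and -1.27 on each of the 3 knockout arrays. All knockout arrays therefore lay above all wild-type arrays. The means were -1.59 ± 0.07 and -1.27 ± 0.00 (SD, n = 3 each), a difference of 0.32 (SE 0.13, interval 0.00 to 0.63, 1.25-fold) with an adjusted p of 0.627 by limma. The exact permutation test gave a two-sided p of 0.10, the smallest that 3 arrays against 3 allow. Arrays of the genotypes did not overlap for 10.5% of all genes, and with the knockout above for 1.83%. The difference was 0.38 on slide 1 and 0.28 on slide 2, and from 0.28 to 0.36 when any 1 array was left out. With normexp background correction, which estimates background by a model, it was 0.20. Quantile normalization gave 0.41 and the authors' deposited values 0.40 (adjusted p = 0.845 and 0.843 by limma).

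Slc8a3, which encodes NCX3, overlapped between the genotypes on both of its probes. The probe with the repeat read 3.53, 3.63 and 4.22 in wild type and 3.76, 3.26 and 3.86 in knockout, with wild-type replicate 3 highest and knockout replicate 2 lowest. The difference was -0.17 (SE 0.25, interval -0.77 to 0.43). The run-free probe read -3.34, -3.39 and -4.57 in wild type and -4.45, -4.28 and -4.03 in knockout; it was above background on wild-type replicate 2 alone and was not tested. Wild-type replicate 3 was the lowest of the 6 arrays, and no fold is given.

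Among the calcium pumps Atp2b1, whose product PMCA1 is the widely expressed form, overlapped between the genotypes on both probes, while the brightest Atp2b2 and Atp2b4 probes read lower in knockout without passing the test. The brighter Atp2b1 probe (chr10:98431670-98431729) read 0.70, 1.17 and 0.89 in wild type and 1.02, 0.75 and 0.85 in knockout. The knockout values all fell inside the wild-type range. The difference was -0.05 (SE 0.18, interval -0.46 to 0.37), and the other Atp2b1 probe (chr10:98485775-98485834) gave 0.06 (SE 0.15).

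For Atp2b2, the probe with the 12-base run read -1.49, -2.29 and -2.27 in wild type and -2.66, -2.48 and -2.48 in knockout. All 3 knockout arrays lay below all wild-type arrays, and wild-type replicate 1 stood apart from the other 5. The means were -2.02 ± 0.45 and -2.54 ± 0.10 (SD, n = 3 each), and the difference was -0.52 (SE 0.24, adjusted p = 0.637 by limma; exact permutation p = 0.10). Without wild-type replicate 1 it was -0.26, and it was -1.16 on slide 1 and -0.20 on slide 2. Arrays that did not overlap with the knockout below were found for 8.67% of all genes. On the other Atp2b2 probe (chr6:113698347-113698406) wild-type replicate 2 read -2.85, the 1 array above background, and the other 5 lay from -6.64 to -5.58.

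Atp2b4, whose product PMCA4 is tied to signalling complexes in cardiomyocytes, was read by 3 probes with differences of 0.10 (SE 0.30), -0.45 (SE 0.28) and -0.20 (SE 0.37). On the brightest of them (chr1:135611676-135611735) the wild-type arrays read -2.32, -2.88 and -3.36 and the knockout arrays -3.38, -3.07 and -3.48. The genotypes overlapped, with wild-type replicate 1 highest, as on the Atp2b2 probe. The interval ran from -1.11 to 0.21 (adjusted p = 0.744 by limma), and without wild-type replicate 1 the difference was -0.19. On slide 1 it was -1.05 and on slide 2 -0.15. Quantile normalization gave -0.13. With normexp background correction this probe gave -0.33, and the Atp2b4 probe that was brightest under that correction gave -0.03.

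**Figure D3:**
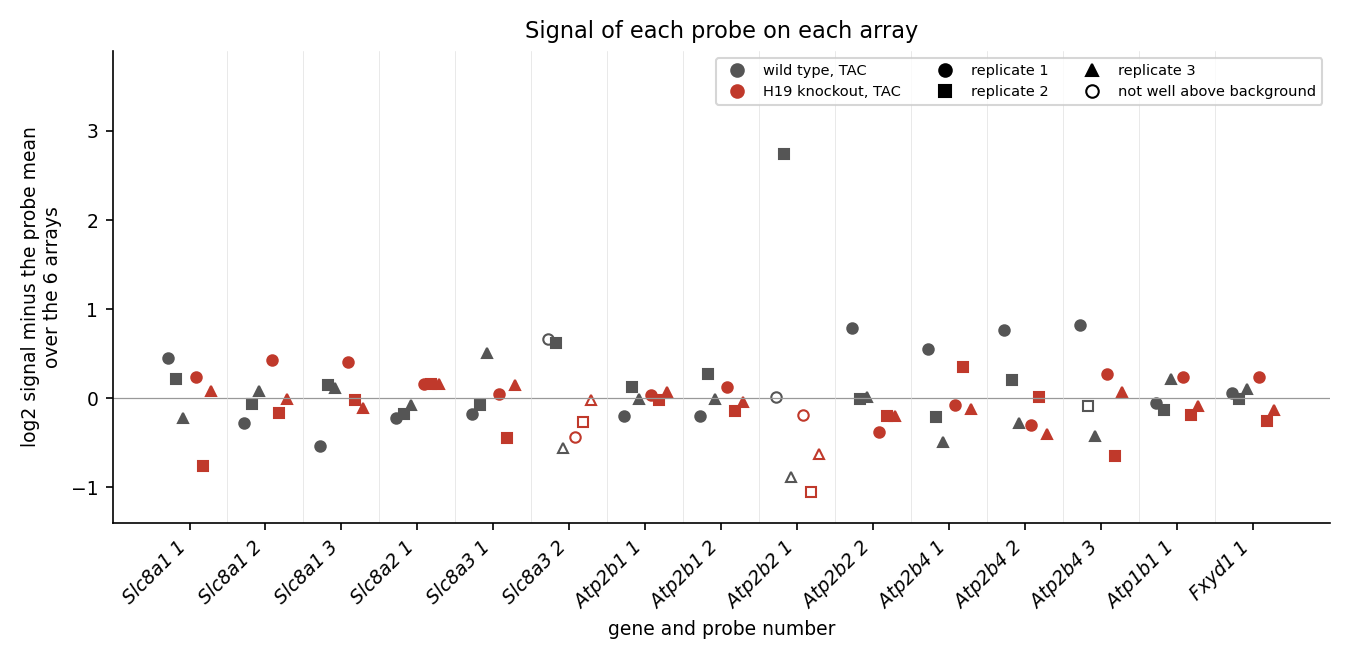
Log2 signal of each probe on each array, shown as the deviation from that probe's mean over the 6 arrays (y axis), by gene and probe number (x axis); grey is wild type, red H19 knockout, the shape gives the replicate and open symbols were not well above background. The 3 knockout arrays lie together above wild type for Slc8a2; wild-type replicate 1 is the highest array on the tested Atp2b2 probe and on all 3 Atp2b4 probes.

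The sodium pump members overlapped between the genotypes. Atp1b1 (chr1:166368263-166368322) read 5.34, 5.26 and 5.60 in wild type and 5.63, 5.20 and 5.30 in knockout. Knockout replicates 1 and 2 were the highest and the lowest array, so the wild-type range lay inside the knockout range. The means were 5.40 ± 0.18 and 5.37 ± 0.23 (SD, n = 3 each), a difference of -0.03 (SE 0.18, interval -0.46 to 0.40). Fxyd1 read 7.48, 7.41 and 7.52 in wild type and 7.65, 7.16 and 7.28 in knockout. Its wild-type arrays lay close together (SD 0.05), and its knockout arrays (SD 0.25) reached beyond them on both sides. The difference was -0.11 (SE 0.17, interval -0.52 to 0.30), and without knockout replicate 2 it was 0.00.

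No other sodium pump gene passed the test. Of 15 subunit genes, both members included, 11 were tested, 6 were higher, 5 lower and 0 passed, with a median difference of 0.01. Atp1a4, the catalytic subunit of sperm, gave 0.14 (SE 0.34). Beta subunits Atp1b2 and Atp1b3 gave 0.13 (SE 0.31) and 0.01 (SE 0.14). Atp1b4 and Fxyd3 were above background on no array, and Fxyd4 on 1 at most. The regulators Fxyd2 and Fxyd6 gave 0.09 (SE 0.28) and 0.10 (SE 0.29). Fxyd7 had the smallest p of the list, with -0.65 (SE 0.31, adjusted p = 0.644 by limma). Fxyd5, whose product also acts in cell adhesion, had the largest difference, -0.82 (SE 0.63). It ranged from 0.88 to 2.90 in wild type and from 0.04 to 1.84 in knockout, so the groups overlapped. Macrophage markers were highest on the same pair of arrays as Fxyd5, wild-type replicate 3 and knockout replicate 2 (mean deviation 0.51 and 0.44), and their part in the Fxyd5 values was not tested.

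Of 13 calcium exchangers and pumps, among them the 6 exchanger and pump members, 10 were tested, 5 were higher and 5 lower, and 0 passed (median -0.01). Atp2b3, the fourth calcium pump gene, was above background on 1 array at most. The potassium-dependent exchanger Slc24a3 differed by 0.53 (SE 0.30), with -0.07 on slide 1 and 0.83 on slide 2, and the mitochondrial exchanger Slc8b1, above background on 3 arrays, by -0.32 (SE 0.55).

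None of the partners and regulators of the exchanger and the pumps passed: 16 of 17 were tested, 10 higher and 6 lower, and the differences lay between -0.18 and 0.24 (median 0.04). Calmodulin, which activates the calcium pumps, is encoded by several genes. Of these, Calm2 had the smallest p of the list (0.17, SE 0.14, adjusted p = 0.856 by limma). Its knockout arrays all lay above its wild-type arrays, as for 1.83% of all genes. The pump partners Nptn and Bsg gave 0.07 (SE 0.14) and 0.18 (SE 0.20). Ank2, the ankyrin that anchors the exchanger and the sodium pump, gave 0.01 (SE 0.15), and Prkaca and Prkacb, catalytic subunits of the kinase that phosphorylates phospholemman, 0.24 (SE 0.21) and 0.16. Ank3, another ankyrin, gave -0.18.

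Among 13 genes of sodium entry and acid extrusion, all tested, 5 were higher and 8 lower and 0 passed (median -0.08), and 2 of the 13 had an unadjusted p under 0.05, beside 7.94% of all genes. Scn4b, a beta subunit of the cardiac sodium channel, read -0.98, -1.23 and -1.63 in wild type and -2.41, -1.91 and -2.29 in knockout. All knockout arrays were below all wild-type arrays, as for 8.67% of all genes, with a difference of -0.92 (SE 0.22, adjusted p = 0.622 by limma), -1.43 on slide 1 and -0.67 on slide 2. Slc38a2, a sodium-coupled amino acid transporter, read higher on all 3 knockout arrays, as did 1.83% of all genes (0.45, SE 0.18, adjusted p = 0.627 by limma). Slc5a1, a sodium/glucose transporter, gave -0.47 and Slc20a1, a sodium/phosphate transporter, 0.30.

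Directions of the smaller differences depended on the slide and on the scaling. On slide 1, 6 of the 8 members were higher in knockout, against 48.5% of all genes; on slide 2, 1 of 8 was, against 28.5%. By the brightest probe of each gene, Slc8a2 was higher and Atp2b2 and Atp2b4 lower on both. The other Atp2b4 probes gave -0.63 and -0.55 on slide 1, and 0.47 and -0.03 on slide 2. With the median of all probes as the reference, the median difference of all genes was 0.36 in place of -0.06, which put 6 members higher, with 81.3% of all genes. Relative to that median, Slc8a1 (0.59), Slc8a2 (0.74), Atp2b1 (0.38) and Atp1b1 (0.40) lay above it, and Slc8a3 (0.26), Fxyd1 (0.32), Atp2b2 (-0.10) and Atp2b4 (-0.03) below.

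**Figure D4:**
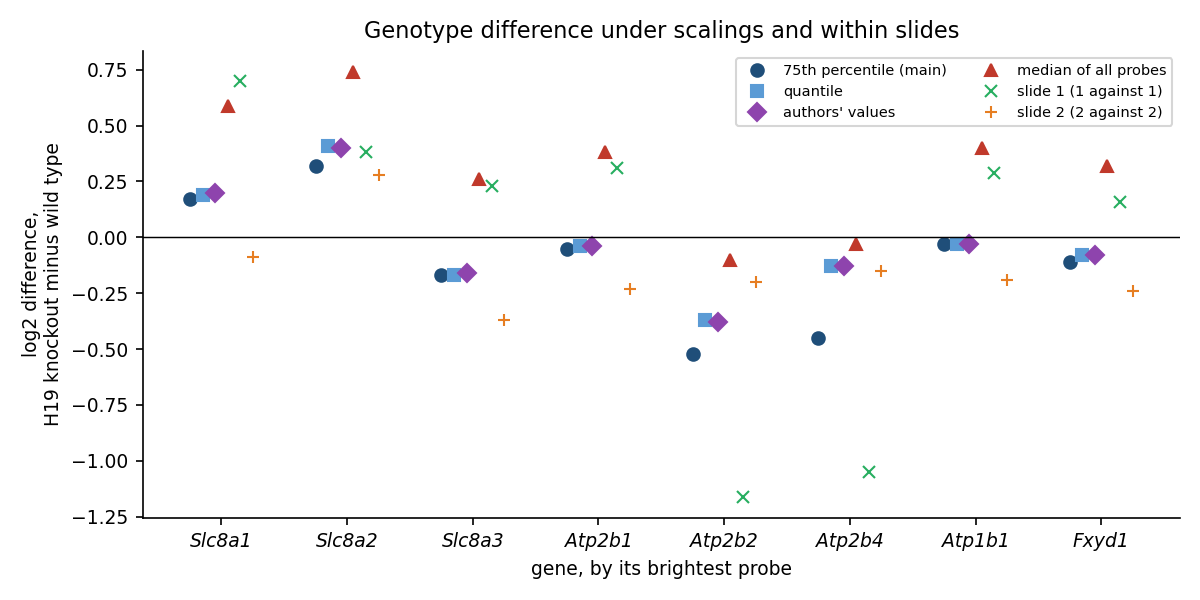
Log2 difference of each member's brightest probe, H19 knockout minus wild type (y axis), by gene (x axis), under the main scaling, quantile normalization, the authors' deposited values and scaling to the median of all probes, and on each slide alone. Slc8a2 is above 0 in all 6 settings plotted and Atp2b2 and Atp2b4 are below 0 in all 6; the other members change sign in at least 1.

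In the pattern over the 6 arrays, the genes nearest to a member were those with the smallest root mean square difference of log2 deviations, among genes varying at least 0.8 times as much. For Slc8a1 these were Ost4 and Extl1 (0.03 each) and Pomt1 (0.04), and for Slc8a2 Gas5 (0.04). Atp1b1 was nearest to Popdc2, Ier3ip1 and Mrpl13 (0.02 each) and Fxyd1 to Atp5d, St3gal3 and Eif3g (0.02 each). With 10954 candidate genes for Atp1b1 and only 6 arrays, the distances are a description.

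Per array, 48.8% to 58.6% of the 59305 non-control spots carried the flag for signal well above background, and 0 were saturated. H19, the check of the labels, was above background on 3 of 3 wild-type and 0 of 3 knockout arrays (0.80 ± 0.53 and -6.32 ± 0.38, SD, n = 3 each; adjusted p = 0.00236 by limma). All 8 cardiomyocyte markers were above background on all arrays. Of these, 3 were higher and 5 lower in knockout and 0 passed, with a median difference of -0.04. Their summed linear signal ran from 1730 to 1860 in wild type and from 1540 to 1750 in knockout. Myh6 (-0.23) was the 1 marker whose arrays did not overlap, with the knockout below, as for 8.67% of all genes. Of the 4 conduction markers, Hcn4 and Cntn2 were above background on no array and Shox2 on 1 at most. Markers of other cells varied between arrays. The 4 atrial markers deviated on average by 1.66, 2.06 and 0.45 from their means on the wild-type arrays and by -0.83, -1.97 and -1.37 on the knockout arrays. Myl7, Myl4 and Sln read lower on all knockout arrays, by differences of -3.51, -2.79 and -4.84 (adjusted p from 0.488 to 0.579 by limma), and Nppa overlapped (0.02). The summed linear signal of the 4, most of it from Nppa, ran from 291 to 326 in wild type and from 249 to 296 in knockout. All 7 fibroblast markers were higher by the mean of 3 arrays, but all 7 read lower in knockout on slide 1 (from -1.30 to -0.02) and higher on slide 2 (from 0.97 to 1.45), with the highest mean deviation, 1.20, on knockout replicate 2; their sums ran from 85.5 to 169 in wild type and from 130 to 280 in knockout. Macrophage markers (6 of 6 lower) had sums from 39.2 to 51.3 and from 24.4 to 51.1. The 2 erythroid markers tested were highest on knockout replicate 2 (3.04) and on wild-type replicate 1 (2.41). Wild-type replicate 1 was also the highest array for the tested Atp2b2 probe and the Atp2b4 probes. On knockout replicate 2 the tested Atp2b2 probe read -2.48, as on knockout replicate 3. The Atp2b4 probes read -2.87 and -3.07 there, each the highest knockout array of its probe, and -4.55, the lowest array of its probe. The part of these cells in the members' values was not tested.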

How the data were processed

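Per the labels, each of the 6 arrays (3 H19 knockout, 3 wild type) held cardiomyocyte RNA of 1 sample; per the file headers, Agilent Feature Extraction 10.7.3.1 wrote the deposited intensity of each spot, background-subtracted and detrended but not normalized between arrays, with flags of other kinds. The authors' deposited value table holds a linear intensity with a median of 69.7 in every column and ranks equal to those of the scanner intensity (Spearman 1.0000); no source used here gives its normalization method. Signals were put on a log2 scale and set relative to the 75th percentile of the array's non-control spots (774 to 1152). Control and outlier-flagged spots were dropped and spots of a probe averaged; 32 probes lacked a usable spot on some array. Probes above background on at least 3 arrays were tested (29989), and a gene was read by its brightest probe (21888 genes). Names were updated through RefSeq (GRCm38.p6, for names only: 26419 probes by accession, 3993 by symbol, 826 by synonym, 24443 unmatched). Probe sequences are those of the array files. Genotypes were compared with limma 3.58.1 (R 4.3.3), adjusted over all genes by Benjamini-Hochberg, and the procedure was tested on simulated data. Members and lists were chosen with earlier results of these data known. The rule for named genes took the members, their paralogs and up to 4 genes of each of 4 lists by smallest p; Nptn, Bsg and Ank2 were added for their roles after their values were seen, and some genes are not reported here. Alternatives covered background correction, scaling, filters, probe choice, blocks, variance models and leaving out arrays. Exon positions were not used here.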

Additional observations from a re-analysis of the deposited data

How the results depend on the processing

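With Benjamini-Hochberg adjustment, array weights were the only alternative run under which a member passed: they put 3 members (Slc8a2, Atp2b1 and Atp2b4) and 8509 genes past the threshold, but their default estimate did not converge and gave weights from 0.276 to 15.6; the gene-by-gene estimate, added after the data were seen, called 0 members and 10 genes. Genes called numbered 3 with quantile normalization and with the authors' values, 118 when scaled to the probes' median, 1 without a filter, 1 with slide as a block, 14 probes in the fit of every probe, 1739 at an unadjusted p under 0.05 (where 1 member stood) and 1 to 10 when an array was left out. Members higher numbered 6 with median scaling, 4 with either array weighting, 6 on slide 1 and 1 on slide 2, and 2 to 5 when an array was left out. Median scaling shifts every gene by the same amount, which alone turned the sign for Slc8a3 (0.26), Atp2b1 (0.38), Atp1b1 (0.40) and Fxyd1 (0.32). Array weights turned it for Slc8a3 (0.19 and, gene by gene, 0.06) and Atp1b1 (0.04 and 0.02). Leaving out an array gave from -0.30 to 0.05 for Slc8a3, -0.15 to 0.08 for Atp2b1 and -0.15 to 0.07 for Atp1b1. The cause of the changes under weighting, slides and left-out arrays was not tested. Correlations between same-numbered arrays of the genotypes were -0.22, -0.05 and 0.04, and those between differently numbered arrays ran from -0.27 to 0.33. With so few arrays these values cannot decide whether replicate numbers pair the samples. The replicate block called 1 gene and 0 members. The choices added later left the members uncalled: percentiles over probes (8 genes) and leaving out probes with a CA or GT run of 10 or more bases (7 genes), under which Slc8a3 and Atp2b2 were no longer tested. With normexp background correction Slc8a2 moved from 0.32 to 0.20 and Atp2b4 from -0.45 to -0.33 on the same probe, or to -0.03 on the probe then brightest. The number of arrays limits the precision.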
